A study of Mus musculus with 13 samples.

Results

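A set of 10 genes that microglia and macrophages use around damaged myelin was followed through experimental autoimmune encephalomyelitis (EAE), an immune-driven mouse model of multiple sclerosis. The members are Spp1, Gpnmb, Igf1, Itgax, Cst7, Lgals3, Fabp5, Ank, Cd63 and Cd9, taken by name from the gene list of the data. All 10 of them were found among the 22598 genes measured, and all 10 were measured in microglia, monocytes and macrophages of the spinal cord. The question the comparison addresses is which of these genes were already higher at the peak of disease and which were higher in chronic EAE only.

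Single-cell RNA sequencing was done on live cells sorted from spinal cords of mice carrying Cx3cr1YFPCreERT2:R26tdTomato, a genotype that all groups shared, the healthy controls included. In this line a Cre recombinase that needs tamoxifen is made from the Cx3cr1 locus and switches on the red protein tdTomato, so that long-lived resident cells keep the mark after short-lived blood monocytes have been replaced. Resident cells came from healthy controls (n = 3 libraries), from mice at the peak of EAE (n = 2) and from mice in chronic EAE (n = 3), and infiltrating cells came from the peak (n = 2) and from chronic EAE (n = 3). The gate follows the mark and not a cell type, because Cx3cr1 is not restricted to microglia. The number, age and sex of the mice behind a library are not given in the sources used here. The labels call the libraries of a group biological replicates, and the libraries are named a, b and c here without order.

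The members belong to the program known as the disease-associated microglial state. Microglia switch it on when they take up myelin debris, dying cells or lipid, largely through the receptor Trem2, while genes of the resting state such as P2ry12 are turned down. Macrophages that arise from blood monocytes use many of the same genes when they become lipid-laden. By role, Spp1, Igf1 and Lgals3 encode secreted proteins, and Gpnmb, Itgax, Cd63, Cd9 and Ank encode membrane proteins, that of Ank a transporter. Cst7 encodes an intracellular protease inhibitor and Fabp5 an intracellular lipid carrier.

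The promoters of 5 members are shown because they differ in time course: Itgax and Cst7 were high at the peak already, and Spp1, Igf1 and Gpnmb were highest in chronic EAE. All 10 genes are protein coding. In build GRCm38 the gene bodies lie at chr5:104435118-104441050 (Spp1, plus strand), chr6:49036546-49070929 (Gpnmb, plus), chr10:87858265-87937042 (Igf1, plus), chr7:128129547-128150657 (Itgax, plus) and chr2:150570415-150578944 (Cst7, plus). The promoter windows run from 250 bases before the start site to 30 bases after it, on the plus strand of mouse build GRCm38.p6, and are RefSeq sequences. Capitals mark matches to TGANTCA, the site of AP-1 factors, to GAGGAAGT, a site of the myeloid factor PU.1, or to TATAAA, the TATA box sequence. The TATAAA match in Spp1 lies at -211 to -206 from the start site, and whether it serves as a TATA box was not tested. The start site is the one in the RefSeq table, and for Igf1 it lies inside the gene body given above, downstream of the annotated gene start. The windows of Cd63 (chr10:128909095-128909374) and Lgals3 (chr14:47373610-47373889), which enter the counts below, also lie inside their gene bodies. Those bodies are chr10:128900989-128912822 (Cd63, plus) and chr14:47367751-47386160 (Lgals3, plus). The windows lie at chr5:104434861-104435140 (Spp1), chr6:49036268-49036547 (Gpnmb), chr10:87860861-87861140 (Igf1), chr7:128129300-128129579 (Itgax) and chr2:150570165-150570444 (Cst7).
Spp1: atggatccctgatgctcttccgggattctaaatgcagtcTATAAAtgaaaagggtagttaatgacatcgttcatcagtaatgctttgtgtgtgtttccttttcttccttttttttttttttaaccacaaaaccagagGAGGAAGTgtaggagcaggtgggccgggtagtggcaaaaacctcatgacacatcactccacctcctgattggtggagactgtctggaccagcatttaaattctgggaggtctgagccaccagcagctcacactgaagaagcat
Gpnmb: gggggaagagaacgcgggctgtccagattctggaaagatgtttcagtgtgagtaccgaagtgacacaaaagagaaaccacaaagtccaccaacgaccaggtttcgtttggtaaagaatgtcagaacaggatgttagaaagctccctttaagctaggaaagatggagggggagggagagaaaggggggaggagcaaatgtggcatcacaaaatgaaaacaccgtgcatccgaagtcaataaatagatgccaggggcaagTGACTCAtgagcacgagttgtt
Igf1: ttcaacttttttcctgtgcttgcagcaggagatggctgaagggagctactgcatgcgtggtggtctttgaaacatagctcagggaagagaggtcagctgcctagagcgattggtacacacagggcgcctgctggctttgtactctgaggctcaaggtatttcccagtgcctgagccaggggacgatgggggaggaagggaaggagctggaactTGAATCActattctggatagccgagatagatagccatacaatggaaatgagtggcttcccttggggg
Itgax: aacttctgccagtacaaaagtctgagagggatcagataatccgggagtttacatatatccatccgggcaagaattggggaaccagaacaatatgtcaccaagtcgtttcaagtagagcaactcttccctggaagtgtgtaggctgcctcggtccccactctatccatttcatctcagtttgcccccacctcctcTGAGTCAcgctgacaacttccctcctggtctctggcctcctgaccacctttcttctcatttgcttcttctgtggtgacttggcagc
Cst7: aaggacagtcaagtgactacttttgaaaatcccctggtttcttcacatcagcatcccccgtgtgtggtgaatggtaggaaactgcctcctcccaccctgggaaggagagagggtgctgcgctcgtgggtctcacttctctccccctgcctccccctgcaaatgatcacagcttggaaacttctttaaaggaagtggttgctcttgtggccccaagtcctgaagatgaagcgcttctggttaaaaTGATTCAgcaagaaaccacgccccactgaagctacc
Of the 10 members, 9 matched the promoter table, and Fabp5 did not. Motifs were searched on both strands, and no 2 matches overlapped. TGANTCA was found in 4 of the 9 member windows (Gpnmb, Igf1, Itgax and Cst7) and in 7.57% of all 27025 promoters of the same length. GAGGAAGT was found in 1 of 9 (Spp1) and in 2.84% of all promoters, and TATAAA in 1 of 9 (Spp1) and in 13.7%. CACGTG, the E-box bound by Mitf and its relatives, was found in 0 of 9 windows and in 6.89% of all promoters. A match is a description of these letters and says nothing about binding in these cells.

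The data held 22148 cells and 116091839 unique molecular identifiers (UMIs, each a counted RNA molecule), of which 17670 cells were annotated by the authors as Microglia, 1572 as Monocyte and 1925 as Macrophage. Microglia of the resident libraries numbered 1149 to 3237 per control library, 486 to 704 per peak library and 1966 to 4293 per chronic library. Depth moved with stage: median UMIs per microglial cell were 3017 to 4476 in controls, 8447 to 8521 at the peak and 2466 to 3544 in chronic EAE, so shares of cells are given after thinning each cell to 1500 UMIs. The 6 microglial markers together were at 11500 to 16400 CPM (UMIs of a gene relative to all UMIs of a sum) in control microglia, 4990 to 7250 at the peak and 9630 to 12600 in chronic EAE. The 6 monocyte markers were at 2.09 to 5.15, 11.9 to 39.9 and 2.27 to 5.31 CPM in the same groups, and the 5 oligodendrocyte markers at 98.9 to 141, 46.6 to 72.4 and 97.6 to 147 CPM. The T cell markers in the matrix (4 of 6) were all at 0 in control microglia and at 0.487 to 4.96 CPM in the diseased ones. The part of these shifts in the results below was not tested. The 13 libraries were sequenced in 4 pools and no pool held both stages, so stage and pool cannot be told apart in a comparison of chronic with peak cells. Across libraries, 55 barcode sequences occurred more than once (110 cells).

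In microglia, the 10 members did not follow a single time course. Itgax, Cst7 and Cd63 rose at the peak and did not pass the test between stages, Gpnmb, Lgals3 and Fabp5 rose at the peak and were higher again in chronic EAE, Spp1, Igf1 and Cd9 were called in chronic EAE but not at the peak, and Ank fell at the peak and rose in chronic EAE. For each library the UMIs of all its microglia were summed, and a level is that sum in CPM, scaled between libraries with the TMM method. Against controls, 6 of the 10 members rose at the peak and 1 fell, where 30% of the 11078 genes tested were called in either direction (edgeR, adjusted p under 0.05). In chronic EAE all 10 members rose, where 28.3% of genes were called and 15% were higher. The median log2 change of the members was 2.18 at the peak and 5.26 in chronic EAE, and that of all genes was -0.01 and -0.06. Of all genes, 1768 were higher and 1558 lower at the peak, and 1661 and 1479 in chronic EAE. With scaling by library size alone these splits were 1093 to 2662 and 918 to 4377, with all-gene medians of -0.33 and -0.51, and then 6 members rose and 1 fell at the peak and 9 rose in chronic EAE.

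**Figure D1:**
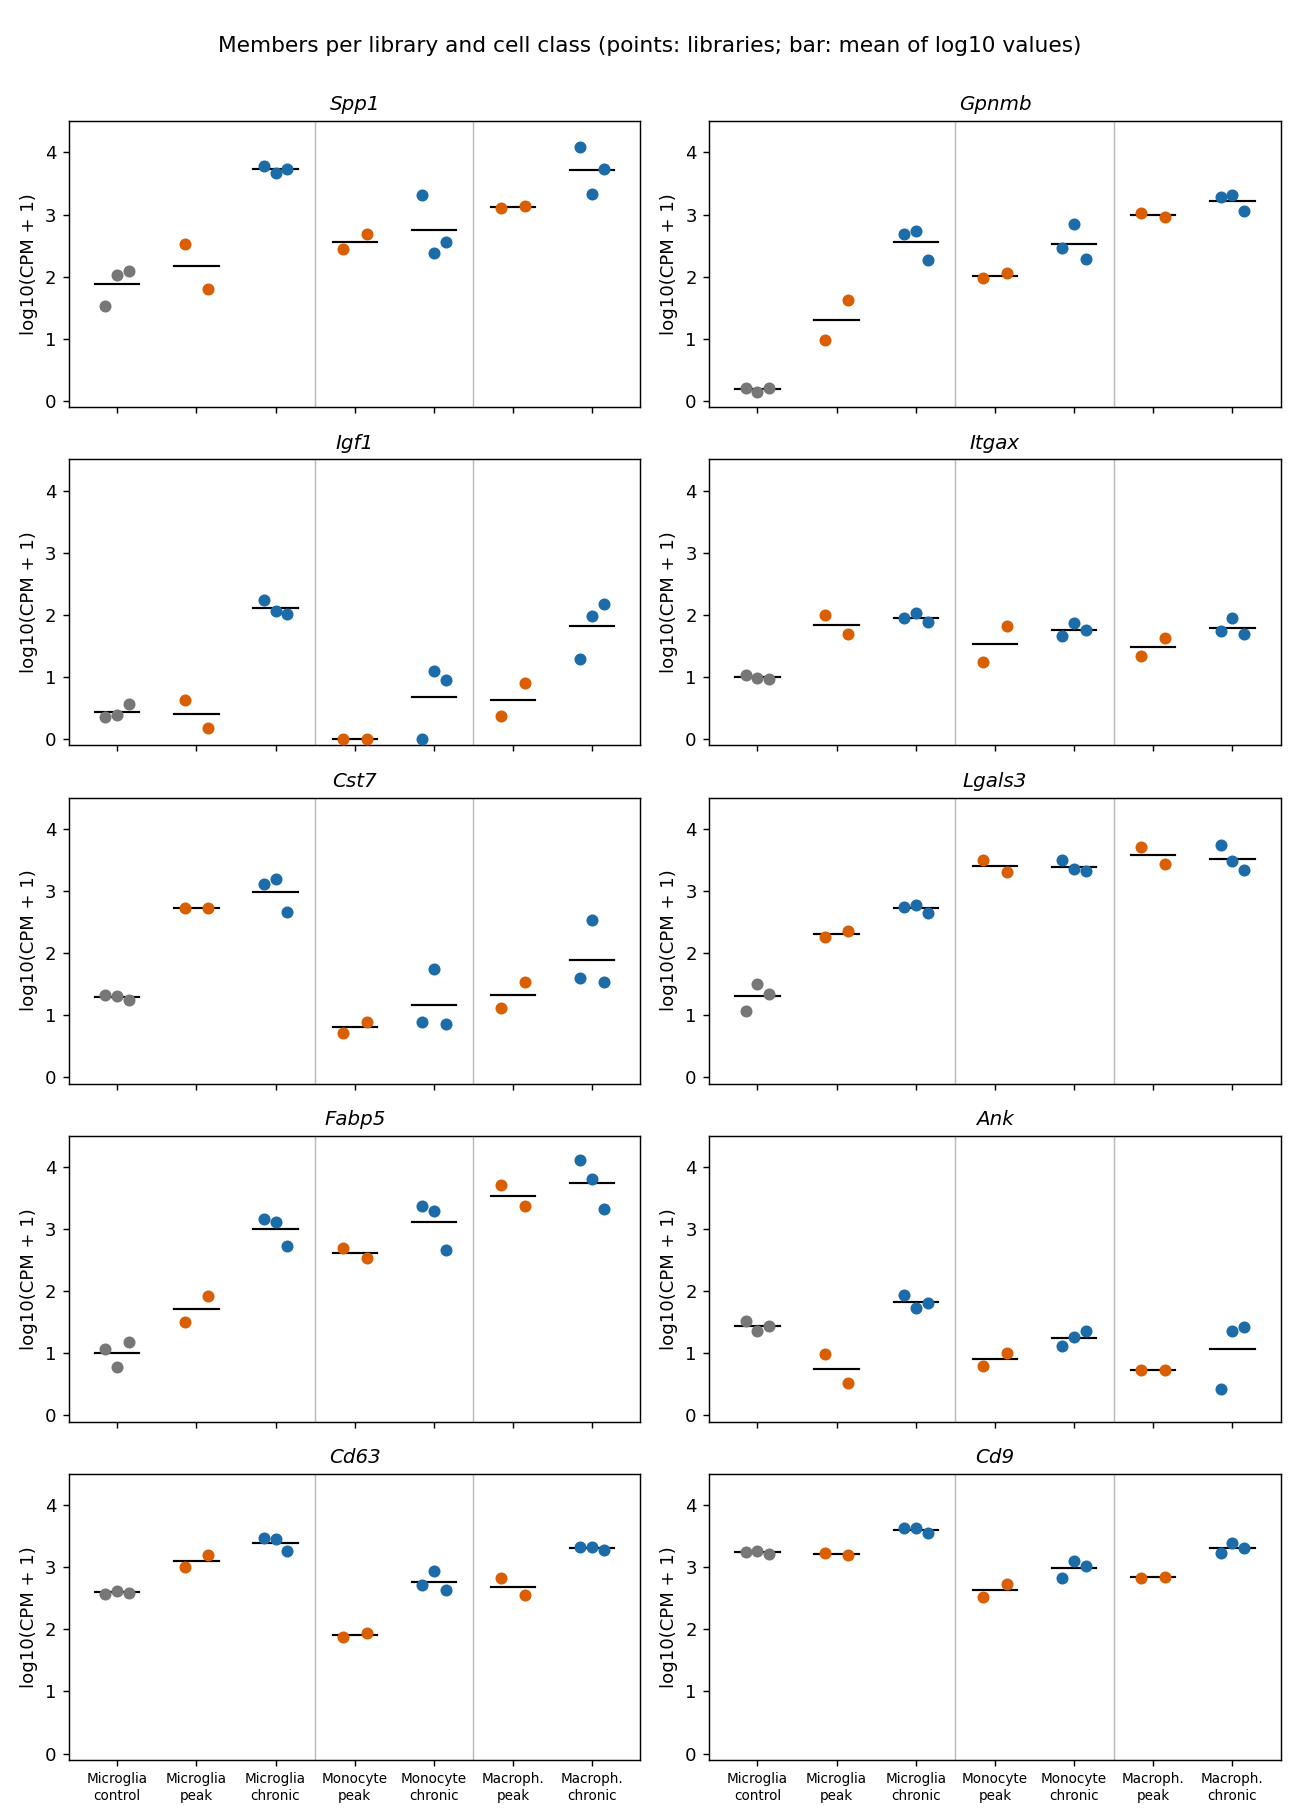
Level of each member as log10(CPM + 1) on the y axis, for microglia of resident libraries and for monocytes and macrophages of infiltrating libraries on the x axis (grey control, orange peak, blue chronic). Each point is a library and each bar a mean. Igf1 in microglia lay between 0.487 and 3.28 CPM in control and peak libraries and between 102 and 170.0 CPM in chronic libraries, whereas Itgax was high in both disease stages.

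Among the secreted members, Spp1 encodes osteopontin, an extracellular matrix protein that binds integrins and Cd44. Spp1 stood at 32.2, 106 and 125 CPM in the control libraries, at 339 and 63.2 CPM in the peak libraries and at 6017, 4666 and 5385 CPM in the chronic libraries. Every chronic library was far above all others, while peak library a was above and peak library b within the control range. Spp1 rose in chronic EAE by a log2 change of 5.92 ± 0.64 (SE, adjusted p = 3.28e-05, edgeR), and was higher in 3 of 3 libraries. At the peak its change of 1.24 ± 0.58 (SE) did not pass the test (adjusted p = 0.122, edgeR). This call depended on the processing: without peak library b the peak value was 1.99 (adjusted p = 0.0235), without peak library a it was -0.41, and with cells thinned to 1500 UMIs it was 2.56 (adjusted p = 0.00425). Without the filter on low counts it was 1.21 (adjusted p = 0.00505).

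Igf1 encodes insulin-like growth factor 1, a growth factor that acts on neurons and on cells of the oligodendrocyte lineage. It was at 1.31, 1.45 and 2.73 CPM in controls, at 3.28 and 0.487 CPM at the peak and at 170.0, 116 and 102 CPM in chronic EAE. Control and peak libraries overlapped, and the peak values rest on 16 and 3 UMIs. Igf1 rose in the chronic comparison by 6.07 ± 0.42 (adjusted p = 1.2e-06, edgeR), and its peak change was -0.05 ± 0.61 (adjusted p = 0.955). The direct test of chronic against peak cells gave 6.12 ± 0.53 (adjusted p = 0.000128, edgeR).

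Lgals3 encodes galectin 3, a sugar-binding protein of phagocytes. Its control values of 10.8, 30.8 and 21.1 CPM were exceeded by both peak libraries (179 and 225 CPM), and those by all chronic libraries (543, 596 and 446 CPM). Lgals3 therefore showed 3 separate levels, with log2 changes from control of 3.33 ± 0.36 at the peak (adjusted p = 2.82e-05, edgeR) and 4.65 ± 0.36 in chronic EAE (adjusted p = 2.26e-06).

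Of the membrane members, Gpnmb encodes a glycoprotein of lipid-laden macrophages and of pigment and bone cells. It was close to absent in controls, at 0.594, 0.396 and 0.643 CPM, which together rest on 5, 3 and 8 UMIs. At the peak it was at 8.62 and 41.7 CPM, and in chronic EAE at 483, 536 and 185 CPM. The 3 groups did not overlap, and Gpnmb rose by 5.54 ± 0.71 at the peak (adjusted p = 0.000106, edgeR) and by 9.46 ± 0.72 in chronic EAE (adjusted p = 2.16e-06).

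Itgax encodes integrin alpha X, a chain that pairs with the product of Itgb2 in a complement receptor. It was at 9.87, 8.58 and 8.36 CPM in controls, at 98.3 and 48.2 CPM at the peak and at 89.0, 107 and 74.9 CPM in chronic EAE. Both disease stages were above all controls and overlapped each other. The log2 change was 3.08 ± 0.29 at the peak (adjusted p = 1.18e-05, edgeR) and 3.33 ± 0.28 in chronic EAE (adjusted p = 4.42e-06).

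Cd63 and Cd9 encode tetraspanins, small membrane proteins of late endosomes and exosomes (Cd63) and of the cell surface (Cd9). Cd63 was at 372, 410 and 389 CPM in controls, at 1011 and 1593 CPM at the peak and at 2920, 2806 and 1788 CPM in chronic EAE. It rose at both stages, by 1.80 ± 0.30 (adjusted p = 0.000709, edgeR) and 2.68 ± 0.29 (adjusted p = 3.13e-05). Cd9 behaved otherwise: it was already high in controls (1738, 1846 and 1655 CPM), stood at 1658 and 1572 CPM at the peak, and reached 4239, 4332 and 3560 CPM in chronic EAE. Cd9 rose in the chronic comparison by 1.2 ± 0.23 (adjusted p = 0.00214, edgeR), and its peak change of -0.06 ± 0.25 did not pass the test.

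Of the intracellular members, Cst7 encodes cystatin F, an inhibitor of lysosomal cysteine proteases that lymphocytes also make. Cst7 was at 20.2, 19.5 and 16.7 CPM in controls and at 527 and 526 CPM in the peak libraries. The chronic libraries were at 1289, 1527 and 455 CPM, so that chronic library c was below both peak libraries. Cst7 rose by 4.86 ± 0.44 at the peak (adjusted p = 7.34e-06, edgeR) and by 5.86 ± 0.44 in chronic EAE (adjusted p = 2.04e-06).

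Fabp5 encodes a fatty acid binding protein that carries lipids inside the cell. It was at 10.6, 5.02 and 14.2 CPM in controls, at 30.6 and 83.1 CPM at the peak and at 1424, 1314 and 529 CPM in chronic EAE. The 3 groups were separate, with a chronic change from control of 6.76 ± 0.56 (adjusted p = 4.41e-06, edgeR) against 2.57 ± 0.51 at the peak (adjusted p = 0.00224). Without peak library b the peak change was 1.65 (adjusted p = 0.0679).

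Ank, the remaining membrane member, encodes a transporter that lets pyrophosphate and ATP out of the cell. It was the only member that fell at the peak, from 31.7, 21.8 and 26.9 CPM in controls to 8.62 and 2.27 CPM, a log2 change of -2.29 ± 0.42 (adjusted p = 0.00125, edgeR). In chronic EAE the sum over all microglia stood at 85.8, 53.2 and 64.2 CPM, above every control and peak library. Its chronic change of 1.33 ± 0.30 passed the test (adjusted p = 0.00653, edgeR), but missed it with scaling by library size alone (0.88, adjusted p = 0.0527), with the pool as a term (adjusted p = 0.20) and with the stage-matched control only (adjusted p = 0.124). Cd9 likewise lost its chronic call with the pool as a term (1.07, adjusted p = 0.157) and with the stage-matched control (1.31, adjusted p = 0.0598).

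**Figure D2:**
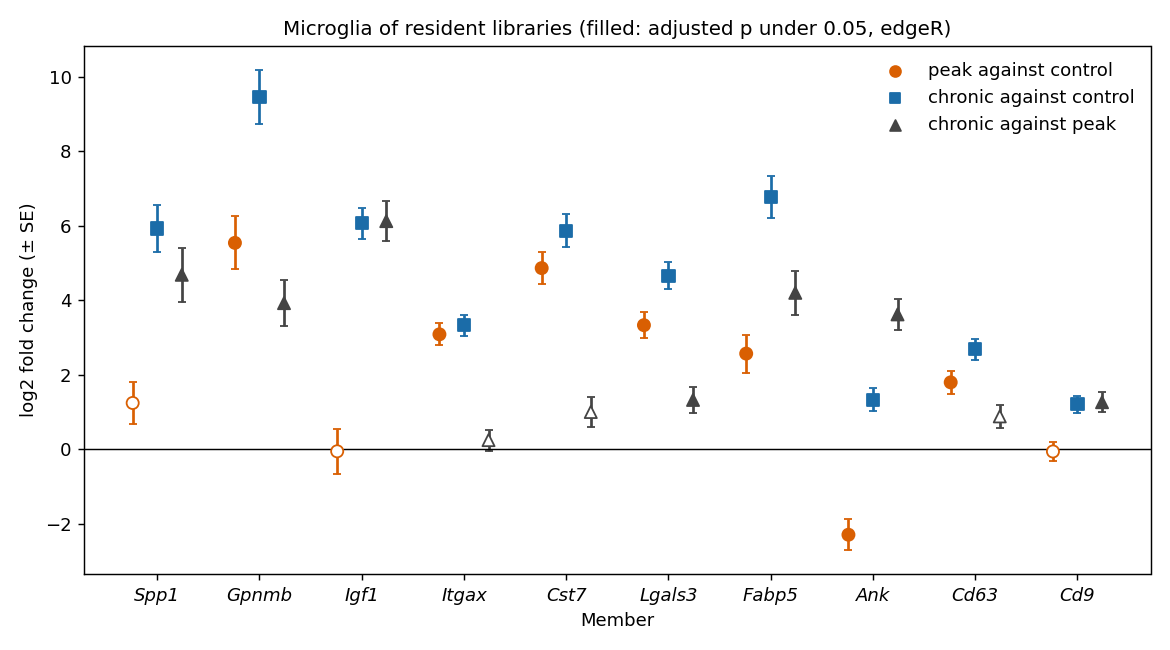
Log2 fold change with its SE (y axis) of each member (x axis) in microglia for peak against control, chronic against control and chronic against peak, with filled symbols for an adjusted p under 0.05. Spp1, Igf1 and Cd9 have open symbols at the peak, Ank has its filled symbol at -2.29, and all 10 members have filled symbols in chronic EAE against control.

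The stages were compared directly in the same fit. From peak to chronic EAE, 7 of the 10 members were higher in chronic microglia, where 21.7% of genes were called in either direction and 9.78% were higher. These were Igf1, Spp1 (4.68 ± 0.72, adjusted p = 0.0015, edgeR), Fabp5 (4.20 ± 0.59, adjusted p = 0.000976), Gpnmb (3.92 ± 0.61, adjusted p = 0.00152), Ank (3.62 ± 0.43, adjusted p = 0.000309), Lgals3 (1.32 ± 0.36, adjusted p = 0.0218) and Cd9 (1.26 ± 0.26, adjusted p = 0.00762). Itgax (0.25 ± 0.28, adjusted p = 0.548), Cst7 (1.00 ± 0.41, adjusted p = 0.0931) and Cd63 (0.88 ± 0.31, adjusted p = 0.0577) did not pass the test. Libraries of the 2 stages overlapped for Itgax and Cst7 and did not for Cd63. Overlap was not counted over all genes, so it only describes these values. Cst7 and Cd63 were called by DESeq2 (1.03 and 0.92), without the filter on low counts and without chronic library c (1.38 and 1.09). With thinned cells (0.69) and without peak library a, peak library b or chronic library b the call of Lgals3 was lost.

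With the sequencing pool as a term, which leaves 2 residual degrees of freedom, 1 member (Ank) was called between stages among 70 genes in all. Only chronic library c shares a pool with a control, so the chronic side of that fit rests on 1 library. Spp1 was at 4.46 (adjusted p = 0.0702, edgeR), Igf1 at 4.88 (0.0581), Gpnmb at 2.10 (0.888) and Fabp5 at 1.64 (0.551). Within pools, chronic library c and its control c differed by 5.43 (Spp1), 8.17 (Gpnmb), 5.22 (Igf1) and 5.22 (Fabp5) on the log2 scale. Peak libraries a and b and their control b differed by 1.67 and -0.75 for Spp1, 4.44 and 6.72 for Gpnmb, 1.18 and -1.58 for Igf1, and 2.61 and 4.05 for Fabp5. For Itgax the same ratios were 3.52 and 2.49 at the peak and 3.16 in chronic EAE, and for Cst7 they were 4.75 in each of the 2 peak libraries and 4.76 in the chronic one. Fewer cells with a gene and less RNA in each cell cannot be told apart in such sums.

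The share of microglia with at least 1 UMI of a gene was therefore taken from cells thinned to 1500 UMIs, with no test, because groups of this size cannot reach a permutation p under 0.1. Spp1 was found in 1.49 to 1.67% of control microglia, in 16.1 and 5.27% at the peak and in 55.3, 43.1 and 47.8% in chronic EAE. Without thinning the shares were 2.75 to 3.13%, 12.9 to 28.8% and 50.5 to 69.8%. T cells, which should not make most of these genes, held Spp1 in 21.7% of 221 thinned cells of the chronic resident libraries (median 3110 UMIs before thinning) and in 3.74% of 187 cells of the peak infiltrating libraries. The chronic microglial share was above that background in each library, while the peak resident libraries held too few T cells for a background of their own.

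Gpnmb was found in 0.0313 to 0.176% of control microglia, in 0.837 and 2.20% at the peak and in 18.4, 20.3 and 9.04% in chronic EAE. Its T cell background was 3.17% in chronic resident and 2.14% in peak infiltrating libraries. The latter come from another gate than the peak microglia, so whether the peak share lies above background was not tested. Igf1 was found in 0.628 and 0% of peak microglia and in 14.5, 8.81 and 7.74% of chronic microglia, against 1.36% of chronic T cells. Of 704 unthinned microglia of peak library b, 3 held an Igf1 UMI (0.426%, exact 95% interval 0.088 to 1.24%, counting error only).

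Itgax and Cst7 showed no such step between the stages. Itgax was found in 16.7 and 5.71% of peak and in 9.79, 10.1 and 7.64% of chronic microglia, against 0.452% of chronic T cells. Cst7 was found in 50.6 and 48.5% of peak microglia and in 58.2, 60.4 and 29.9% of chronic microglia. Cst7 is a gene of T cells too (33.9% of chronic ones), so T cells give no background for it. Fabp5 was found in 1.05 to 1.41% of control, 4.60 and 6.59% of peak and 46.1, 43.5 and 25.6% of chronic microglia. Its T cell share was 14% in chronic resident and 13.4% in peak infiltrating libraries. The latter come from another gate than the peak microglia, so whether the peak microglial share of Fabp5 lies above background was not tested. Lgals3 was found in 21.5 and 22.1% of peak and 34.0, 31.5 and 21% of chronic microglia, beside 18.6% of T cells in chronic resident and 46.0% in peak infiltrating libraries. Cd63 was found in 39.6 to 45.5% of control, 75.7 and 82.6% of peak and 82.7 to 92.5% of chronic cells, while Cd9 was found in 81.3% or more of the cells of every group. Ank stayed rare, in 3.78 to 4.35% of control, 1.26 and 0.439% of peak and 4.27 to 7.85% of chronic cells, beside 3.62% of chronic T cells.

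**Figure D3:**
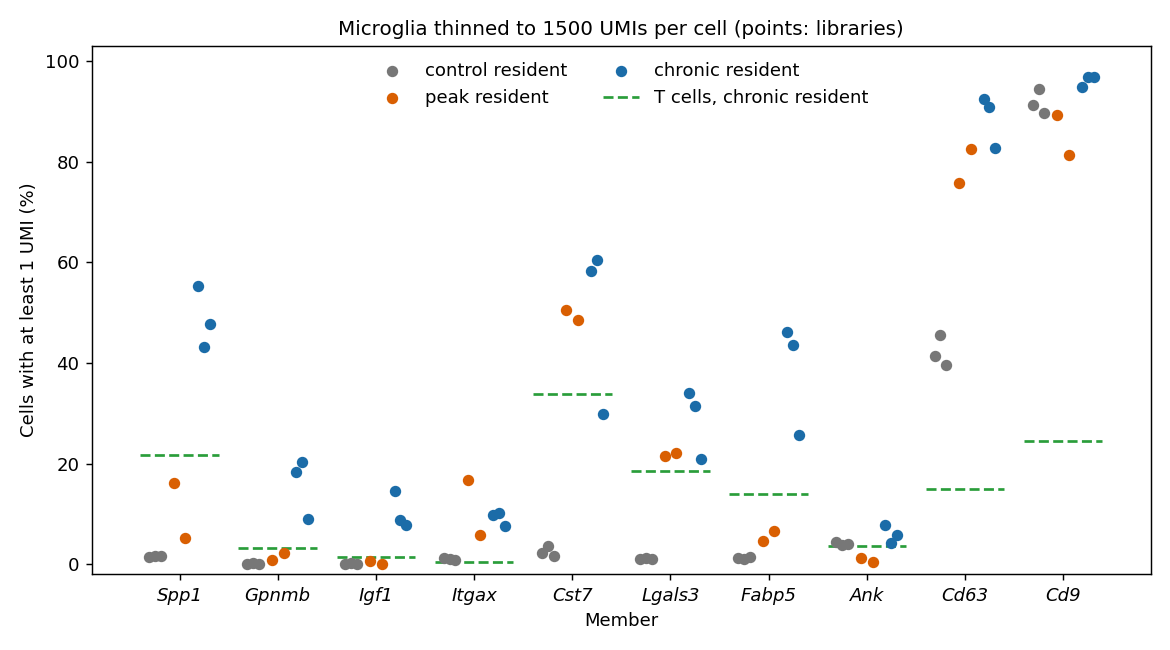
Share of microglia with at least 1 UMI of each member (y axis, percent) after thinning to 1500 UMIs per cell, per library and group, with the share in T cells of chronic resident libraries as a dashed line. Cst7 and Itgax points of peak and chronic libraries overlap, whereas Spp1, Gpnmb, Igf1 and Fabp5 points of chronic libraries lie above those of peak libraries.

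The authors' deposited clusters showed where in the microglial population these UMIs were. The clusters were built from the same genes, so this is a description and carries no test. Cluster 4 held 0.791 to 1.31% of control microglia, 22.6 and 35.1% of peak microglia and 55.1, 46.3 and 27.6% of chronic microglia. In chronic EAE it held 92.1 to 95.9% of the Spp1 UMIs, 94.7 to 96.5% of the Gpnmb UMIs and 90.0 to 94.7% of the Igf1 UMIs. The parts were lower for Cd63 (58.7 to 70.2%) and Cd9 (50.8 to 65.8%). For Ank the part was 78.0 to 89.7%. Outside cluster 4, Ank was at 10.8 to 22.7 CPM in chronic and at 24.9 to 35.9 CPM in control microglia, scaled by library size alone. The chronic rise of Ank in the sums was thus not seen outside cluster 4 at this scaling.

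The few cells of cluster 4 in healthy cords, 14, 15 and 40 cells in the 3 libraries, carried most of what control microglia had of Spp1: 76.0, 88.3 and 94.3% of the UMIs. They also held 5 of 11 Igf1 UMIs in control a, 10 of 11 in control b and 30 of 34 in control c, and 4 of 5, 2 of 3 and 8 of 8 Gpnmb UMIs. Of the 15 cells in control b, 1 had a barcode sequence that occurred in another library, and none did in the others. In control c, the cluster 4 cells had Spp1 at 6145 CPM and Igf1 at 126 CPM, beside 7428 to 13070 and 182 to 239 CPM in chronic cells of that cluster, but Gpnmb at 33.6 CPM beside 444 to 851 CPM. Outside cluster 4, Spp1 was at 355 to 996 CPM in chronic microglia and at 8.72 to 17.7 CPM in controls. T cells of the chronic resident libraries held Spp1 at 273.3 to 444.5 CPM. How much of the chronic value outside cluster 4 is such background was not tested.

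Cells placed in cluster 4 at the peak differed from their chronic counterparts in the same direction as the whole population. Peak cells of cluster 4 held Spp1 at 1063 and 129 CPM, Igf1 at 15.1 and 0.694 CPM, Fabp5 at 171 and 319 CPM and Gpnmb at 46.8 and 167 CPM, each below every chronic library (Fabp5 1189 to 2029 CPM). The Gpnmb UMIs at the peak lay in few cells. In peak library a, 28 of 42 lay in 9 cells of cluster 4, and in library b 240 of 257 lay in 20. Outside cluster 4, Gpnmb was at 3.89 and 3.48 CPM at the peak and at 0 to 0.189 CPM in controls. Of the Fabp5 UMIs at the peak, 68.5 and 89.6% lay in cluster 4. Outside it Fabp5 was at 13.1 and 10.8 CPM at the peak and at 6.03 to 8.5 CPM in controls. Of the Cst7 and Itgax UMIs at the peak, 20.4 to 34.8% and 12.5 to 17.8% lay in cluster 4, and the rest lay elsewhere, mostly in cluster 3. Cluster 3 held Cst7 at 507 CPM on average at the peak and at 497 CPM in chronic EAE, and Itgax at 86.0 and 56.8 CPM.

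**Figure D4:**
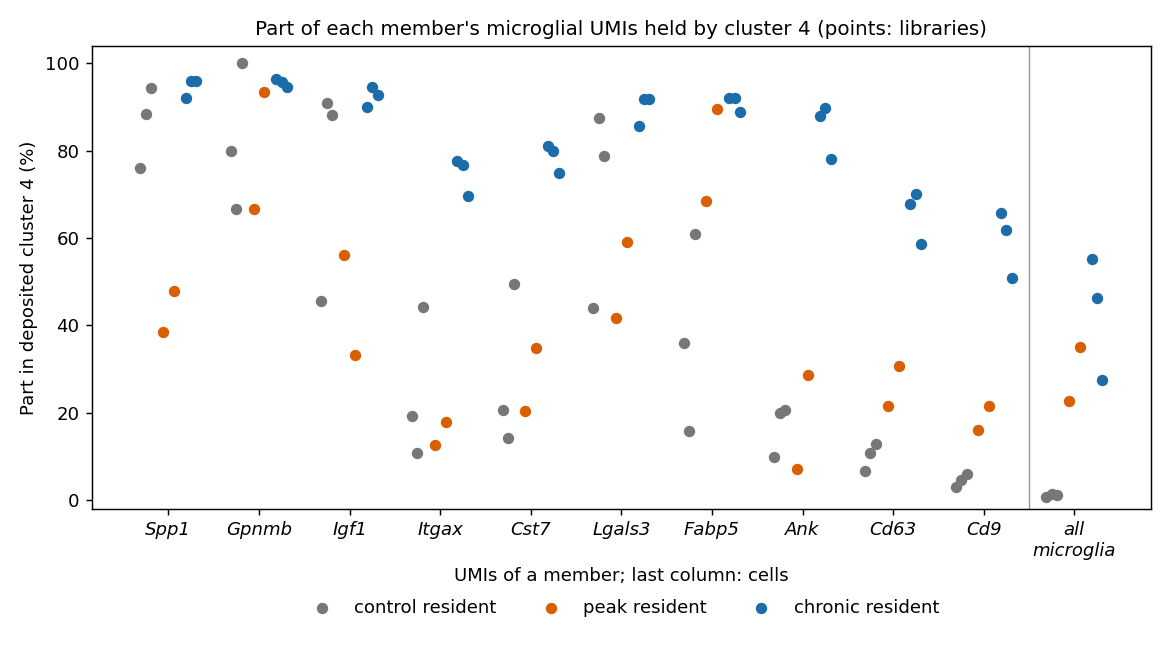
Part of each member's microglial UMIs held by the authors' cluster 4 (y axis, percent) per library and group, with the part of the cells in that cluster in the last column. In control libraries 0.791 to 1.31% of the cells held 76.0 to 94.3% of the Spp1 UMIs, and at the peak cluster 4 held at most 34.8% of the Cst7 and 17.8% of the Itgax UMIs.

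Members were also counted cell by cell after thinning. A control microglial cell held 1.40 to 1.53 of the 10 members on average, most often Cd9 and Cd63, a peak cell 2.55 and 2.77, and a chronic cell 3.34 to 4.31. Cells with 6 or more members made up 0.0878 to 0.219% of control microglia, 1.46 and 1.88% of peak microglia and 12.9 to 26.9% of chronic microglia. In chronic microglia, Gpnmb was found in 28.6, 37.1 and 15.0% of cells with Spp1 and in 5.85, 7.60 and 3.58% of cells without. Igf1 was found in 37.8, 25.5 and 29.3% of cells with Gpnmb and in 9.21, 4.56 and 5.59% of cells without it. Cells were matched for depth alone, so these shares describe joint detection only.

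At the peak, joint detection was rare where it could be read. In peak library a, Gpnmb was in 1.30% of 77 thinned cells with Spp1 and in 0.748% of 401 cells without, and in library b in 0% of 36 and 2.32% of 647. Cst7, by contrast, was found in 56.2 and 56.4% of peak cells with Itgax and in 49.5 and 48.0% of those without.

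**Figure D5:**
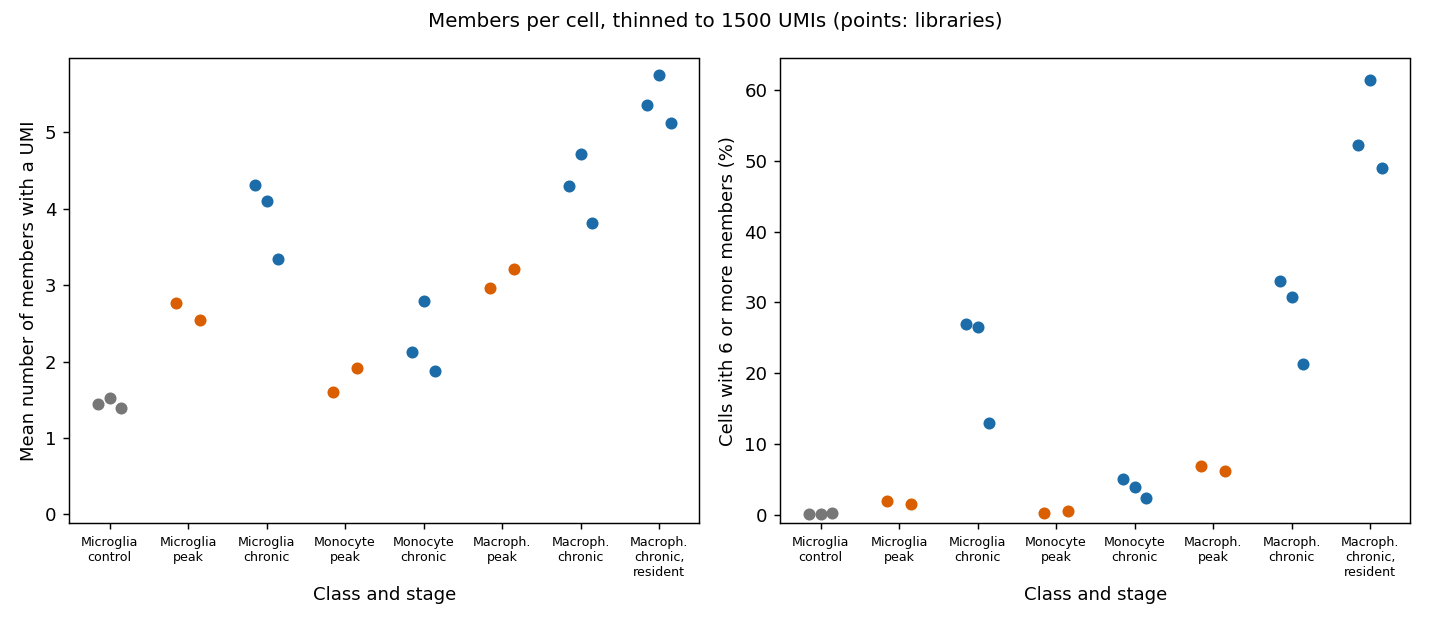
Mean number of members with a UMI per cell (left) and percent of cells with 6 or more members (right), after thinning to 1500 UMIs, for each library of a class and stage (x axis). Chronic points lie above peak points in microglia and in macrophages in both panels, and macrophages of the chronic resident gate are highest, at 49.0 to 61.4% of cells, with microglial markers above their macrophage markers.

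Infiltrating macrophages, unlike microglia, had Spp1, Gpnmb, Fabp5 and Lgals3 at high levels by the peak. Spp1 was at 1291 and 1390 CPM in peak macrophages and at 12330, 2111 and 5365 CPM in chronic ones, and Gpnmb at 1077 and 902 CPM and at 1882, 2072 and 1132 CPM. Fabp5 was at 5007 and 2369 CPM at the peak and at 12870, 6302 and 2104 CPM in chronic EAE, where the stages overlapped. Lgals3 overlapped too, at 5067 and 2746 CPM against 5477, 3003 and 2193 CPM.

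Igf1 was the member with the largest fitted stage difference in macrophages, from 1.35 and 6.87 CPM at the peak to 18.6, 95.6 and 146 CPM in chronic EAE (4.70 ± 1.00). Of the 9219 genes tested in macrophages 0 were called (0% of genes, 0 of 10 members), with 710 genes at an unadjusted p under 0.05 by edgeR. DESeq2 called 36 genes, 3 of them members (Spp1, Cd63 and Cd9), and edgeR without the filter on low counts called 206 genes and 5 members. For Igf1 the adjusted p was 0.422 (edgeR), and without chronic library a it was 0.000337, when 155 genes and 4 members (Igf1, Cst7, Ank and Cd63) were called. Chronic libraries were all above peak libraries for 6 members, and overlapped for 4. How many of all genes were likewise apart was not counted, so no result about the members can be read from this. The other fitted changes ran from -0.12 ± 0.49 (Lgals3) to 2.66 ± 1.01 (Cst7). The median was 1.74 for the 10 members and -0.02 for all genes. The Cst7 values were 11.97 and 33.34 CPM at the peak and 32.86, 39.14 and 339.6 CPM in chronic EAE (lowest to highest). Of thinned macrophages without Itgax, 20.6% held Cst7 in chronic library b and 2.51% in library a. Chronic infiltrating library b held 1915 microglia among 2359 cells. Microglia of that gate in chronic EAE had Cst7 at 449.5 and 1405 CPM. Whether this make-up entered the macrophage and monocyte values was not tested.

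In monocytes the level of most members was lower than in macrophages of the same libraries. Igf1 was at 0 in both peak libraries (0 of 1023 and 0 of 177 cells, which allows shares of cells with a UMI of up to 0.293 and 1.69% at this depth and sets no limit on cells expressing the gene) and at 0, 11.7 and 7.84 CPM in chronic ones, and no fold is given for it. Cd63 was at 74.7 and 87.4 CPM at the peak and at 510.3, 853 and 427 CPM in chronic EAE. It was the single member called between stages (2.98 ± 0.45, adjusted p = 0.0302, edgeR), where 8 of 7920 genes were called (0.101%, with 0.0758% higher and 0.0253% lower), and the call was lost without any of peak library a, peak library b or chronic library b (adjusted p from 0.0579 to 0.315), with library size scaling (0.0616) and with thinned cells (0.224). The median was 1.33 for the 8 members tested and -0.02 for all genes. The other tested members ran from 0.06 ± 0.38 (Lgals3) to 2.03 ± 0.54 (Gpnmb), and Igf1 and Cst7 were below the filter on low counts there.

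Macrophages and monocytes were compared within the same 5 libraries. Of the 10 members, 8 were higher in macrophages and 0 lower, where 20.2% of 8357 genes were called, 9.81% higher and 10.4% lower. The changes were 3.98 ± 0.34 for Igf1, 2.66 ± 0.23 for Gpnmb, 2.60 ± 0.25 for Spp1, 2.48 ± 0.20 for Fabp5, 2.17 ± 0.17 for Cst7 and 2.10 ± 0.21 for Cd63, with adjusted p from 1.2e-05 to 5.1e-05 (edgeR). Cd9 (0.90 ± 0.11) and Lgals3 (0.47 ± 0.10) were higher by less, and Itgax (0.00 ± 0.17) and Ank (-0.46 ± 0.32) did not pass the test. The classes were annotated by the authors from the same RNA, and how far the members entered the annotation was not tested. The median was 2.14 for the members and 0 for all genes.

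Infiltrating macrophages were then set against resident microglia at each stage, where class, gate and depth go together. At the peak 4 members were higher in macrophages and 3 lower, where 22.2% of 10930 genes were called. Fabp5 (6.03 ± 0.92, adjusted p = 0.000925, edgeR), Gpnmb (5.30 ± 0.76), Lgals3 (4.28 ± 0.51) and Spp1 (2.74 ± 0.80, adjusted p = 0.0288) were higher in macrophages. The medians were 0.29 for the members and -0.04 for all genes. Cst7 (-4.57 ± 1.11, adjusted p = 0.0122), Cd63 (-1.35 ± 0.41) and Cd9 (-1.23 ± 0.33) were higher in microglia. Itgax (-1.24 ± 0.45, adjusted p = 0.0688), Igf1 (0.86 ± 1.19) and Ank (-0.28 ± 0.91) did not pass the test. Itgax was called lower in macrophages with library size scaling (-1.57, adjusted p = 0.0378), without the filter on low counts (-1.27, 0.0157), with thinned cells (-1.71, 0.0359), without peak resident b (-1.67, 0.0476) and without peak infiltrating b (-1.79, 0.0339). The calls of Spp1, Cd63 and Cd9 were each lost without peak resident b, when Spp1 was at 1.98 (adjusted p = 0.133), Cd63 at -1.0 and Cd9 at -1.28, and also without other single libraries. The call of Cst7 was lost without peak infiltrating a (-3.96, adjusted p = 0.14).

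In chronic EAE 3 members were higher in macrophages and 3 lower, where 19.3% of genes were called, 9.09% higher and 10.2% lower. Lgals3 (2.81 ± 0.39), Fabp5 (2.75 ± 0.65) and Gpnmb (2.14 ± 0.54) remained higher in macrophages, with adjusted p from 0.000429 to 0.0158 (edgeR). Cst7 (-2.91 ± 0.83), Ank (-2.07 ± 0.65) and Cd9 (-0.91 ± 0.27) were higher in microglia, with adjusted p from 0.0284 to 0.043 (edgeR), and each of these 3 calls was lost without chronic resident a, chronic resident b or chronic infiltrating a. Ank also lost its call without chronic resident c, chronic infiltrating b or peak infiltrating a. Cd9 also lost its call without chronic infiltrating b or c, and without the filter on low counts. The medians were -0.33 and -0.04. Spp1 (0.36 ± 0.61), Igf1 (-0.50 ± 0.64), Itgax (-0.44 ± 0.36) and Cd63 (-0.23 ± 0.33) did not pass the test between the classes in chronic EAE. Whether the stage step itself differed between the classes was tested as an interaction, and 0 members and 1 gene of 10930 were called (0.00915%). The largest member values were 3.28 ± 0.99 for Fabp5 (adjusted p = 0.634, edgeR) and 3.16 ± 0.84 for Gpnmb (adjusted p = 0.556), both larger in microglia. Without the filter on low counts these 2 members were called (adjusted p = 0.0209 and 0.00872). There were 571 genes at an unadjusted p under 0.05 and 22 called by DESeq2, and the medians were 1.42 for the members and 0.01 for all genes.

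Cells that were annotated as Macrophage but came from the resident gate differed by stage. In chronic EAE 52 to 68 such cells per library had Spp1 at 11920, 16250 and 11900 CPM, Gpnmb at 2980, 3088 and 1743 CPM and Igf1 at 140, 407 and 338 CPM, which overlapped the infiltrating macrophages for each of the 3 genes. Their microglial markers were at 3650 to 5790 CPM and their macrophage markers at 1840 to 2550 CPM, so microglial markers were the higher of the pair in these cells too, and they are called macrophages here by the authors' label only. At the peak there were 30 and 20 such cells, with microglial markers at 3740 to 4540 CPM, macrophage markers at 269 to 461 CPM, Mrc1 at 0 in both libraries, Gpnmb at 2.61 and 13.3 CPM and Igf1 at 0. By their markers these peak cells went against their label, and they were used in no comparison. Infiltrating macrophages had microglial markers at 559 to 2010 CPM and macrophage markers at 2010 to 3980 CPM.

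The gate within a class was compared in chronic EAE. Between resident and infiltrating macrophages 0 of 7177 genes were called (0%), with 302 at an unadjusted p under 0.05 by edgeR and 16 called by DESeq2, and member changes ran from -0.37 ± 0.36 (Lgals3) to 2.78 ± 0.94 (Cst7), with a median of 0.92 against -0.02 for all genes. Microglia that fell in the infiltrating gate, 1915 and 74 cells in 2 libraries, had Spp1 at 3928 and 5703 CPM, Gpnmb at 487 and 201 CPM and Igf1 at 105 and 96.3 CPM, close to the resident gate. There 0 of 10598 genes were called (0%), with 33 at an unadjusted p under 0.05 by edgeR, and the 10 members lay between -0.28 ± 0.27 (Lgals3) and 0.48 ± 0.30 (Ank), with a median of 0.11 against 0.02.

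The partners of the members were read in the same microglial fit. The counts below are to be read against all 11078 genes, of which 16% were higher and 14.1% lower at the peak and 15% higher and 13.4% lower in chronic EAE. Of 29 further genes of the disease-associated state that were tested, 15 rose and 1 fell at the peak and 27 rose and 0 fell in chronic EAE, with medians of 1.02 and 1.69. Apoe, a lipid carrier, rose by 3.47 ± 0.30 and 4.92 ± 0.30, and Clec7a, a receptor for glucans, by 2.18 ± 0.27 and 3.25 ± 0.26. Lpl, which splits fats and was singled out after its values were seen, was at 0.12 ± 0.42 at the peak and rose by 2.5 ± 0.39 in chronic EAE, and Ccl6, a chemokine, fell by 2.51 at the peak and rose by 0.80 ± 0.28 in chronic EAE. The receptor gene Trem2 did not pass the test at either stage (-0.57 ± 0.27 and 0.10 ± 0.24, adjusted p = 0.132 and 0.78, edgeR). Of 16 resting-state genes, 12 fell at the peak and 13 in chronic EAE and 0 rose, with P2ry12 lower by -3.16 ± 0.35 and -1.71 ± 0.28 on the log2 scale.

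Of 8 osteopontin receptor genes tested, 3 rose and 2 fell in each stage, where 30% of all genes were called at the peak and 28.3% in chronic EAE. Cd44 rose by 4.06 ± 0.31 at the peak and 2.93 ± 0.30 in chronic EAE, and the integrin gene Itga9 fell by 4.68 and 3.14. In the insulin-like growth factor pathway, 2 of 6 genes rose and 2 fell at each stage, too few genes to describe the pathway by. The receptor gene Igf1r fell by 2.09 and 1.54, and Igf2r, the receptor that takes up Igf2 and lysosomal enzymes, rose by 3.59 ± 0.36 and 3.31 ± 0.34. Itgb2, the partner chain of Itgax, rose by 1.04 ± 0.36 and 1.41 ± 0.33 (adjusted p = 0.0446 and 0.00773, edgeR).

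Of 9 cystatins and cathepsins, 2 rose and 3 fell at the peak and 4 rose and 1 fell in chronic EAE. Cst3, the secreted cystatin of resting microglia, fell by 3.03 at the peak and by 0.95 in chronic EAE. Of 5 genes of fatty acid handling, 2 rose at the peak and 3 in chronic EAE, with Fabp3 higher by 3.68 ± 0.49 and 5.90 ± 0.46. Of 11 further tetraspanins, 6 fell and 0 rose at the peak, and 1 fell in chronic EAE, and Cd81 did not pass the test against control (-0.45 ± 0.34 and 0.74 ± 0.30). Galectin genes other than Lgals3 rose in 2 of 5 cases at each stage, among them Lgals1 (2.39 ± 0.34 and 2.49 ± 0.31). Of 3 genes of the Mitf family, 0 were called at the peak and 1 (Tfe3) fell in chronic EAE by 0.90, and Mitf itself was at 0.49 ± 0.26 and 0.57 ± 0.23.

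Over 18 sums (8 of microglia, 5 of monocytes and 5 of macrophages), which share libraries and differ in depth, the members did not follow a single pattern. Log2 CPM of Gpnmb went with Fabp5 (Pearson r = 0.98) and Lgals3 (0.91). Cst7, Cd63 and Cd9 went together (0.80 to 0.83). Lgals3 and Cd9 had a weak negative r over these sums (-0.39), while in microglia both were higher in chronic than in peak cells (1.32 and 1.26). Among 3722 other genes, the closest to Spp1 were Pebp1 (0.87), Atf3 (0.87) and C3ar1 (0.82), and the closest to Gpnmb were Ms4a7, Anxa5 and Fth1 (0.96 each). For Igf1 they were Cyb5r1 (0.94), Plau (0.90) and Kif13b (0.88), and for Itgax they included Axl (0.87) and Vps13c (0.85). These are descriptions of 18 sums with no test.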

How the data were processed

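UMI counts per gene and cell were deposited by the authors with a cell table giving library, gate, stage, class and cluster, and these counts were used as deposited. Cell Ranger 3.1.0 and R 4.1.3, with builds GRCm38 and mm10, are named in the submitters' processing notes, where no gene annotation is named. The deposited table also gives, from the authors, the percent of a cell's UMIs from mitochondrial genes (at most 5.0) and the log10 of its UMIs, which were used only to check the matrix against it. No cell was marked as a doublet in the deposited table, and no doublet caller was run. The class names are the authors' own.

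Counts were summed per library and class, for sums of at least 20 cells. Comparisons were fitted with edgeR 4.0.16 in R 4.3.3 (filter on low counts, TMM scaling, quasi-likelihood F test), with Benjamini-Hochberg adjustment over all genes tested and a threshold of 0.05. The SE is the log2 fold change divided by the square root of F. The fits were tested on simulated data. P-values measure the spread between libraries. Exact permutation tests of 3 against 3 or 2 libraries cannot go below 0.1, so shares of cells were not tested. For shares, cells were thinned to 1500 UMIs and shallower cells left out (numpy 2.4.6). Exact binomial 95% intervals (scipy 1.17.1) cover counting error only, and so do the limits for a count of 0, which stand for 3 counts. Alternatives were DESeq2 1.42.0, library size scaling, no filter, thinned cells, the pool as a term, other cell sets and leaving out each library. The members and gene lists were chosen with earlier results of these data known. All 10 members were read in every comparison. The genes named from each list are up to 4 called genes with the smallest p in a comparison, Itgb2, Cd44, Igf1r, Trem2, Apoe, Mitf and Cd81 always. The 3 genes most like Spp1, Gpnmb, Igf1 and Itgax are those with the highest Pearson r of log2 CPM (prior count 2) among genes with a mean log2 CPM of at least 5. A gene from the Itgax comparison is not reported here.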

Additional observations from a re-analysis of the deposited data

Results flagged for a closer look

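In microglia the change from control differed between chronic and peak EAE for 7 of the 10 members by a direct test in the fit of all genes (edgeR, adjusted p under 0.05). The difference on the log2 scale was 6.12 for Igf1, 4.68 for Spp1, 4.2 for Fabp5, 3.92 for Gpnmb, 3.62 for Ank, 1.32 for Lgals3 and 1.26 for Cd9, each higher in chronic cells, and higher in all 3 chronic libraries than in both peak libraries. Both changes use the same 3 control libraries. Median UMIs per cell, microglial marker levels and the sequencing pool moved with stage, and their part in these differences was not tested beyond the values given with the pool as a term, where Ank alone of these 7 kept its call. With cells thinned to 1500 UMIs, 6 of the 7 kept their call and Lgals3 did not (0.69).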

How the results depend on the processing

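Stage rests on 2 peak libraries and pools that hold a single stage, which limits every between-stage value. Over the alternatives, members of chronic against control microglia kept their call in 155 of 160 fits and their direction in every one, and those of peak against control in 146 of 160. Thinning to 1500 UMIs gave 2207 called genes for peak against control, 938 for chronic against peak, 518 for macrophages against monocytes, 1000 and 1085 for macrophages against microglia at the peak and in chronic EAE, 2 for monocytes between stages (0 members) and 0 for the difference of stage steps. It gave Igf1 1.68 and Cd9 0.03 at the peak, Itgax -0.15 from peak to chronic, Lgals3 -0.20 in monocytes, Itgax 0.29 in macrophages against monocytes, and Igf1 -0.36 and Ank 0.44 in macrophages against microglia at the peak. The pool as a term gave 564 genes for chronic against control, 70 genes and 1 member for chronic against peak, Cst7 -0.06 between stages and Igf1 0.30 at the peak. Controls of the same stage gave 807 genes in chronic EAE and Igf1 0.40 at the peak, and Igf1 was at 0.08 without the proliferating cluster and at 0.05 by DESeq2. Library size scaling gave 5295 genes for chronic against control, 1 gene and 0 members in monocytes, where Lgals3 was at -0.00, and Itgax -0.01 between microglial gates.

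DESeq2 called 36 genes and 3 members in macrophages between stages, 44 genes and 2 members in monocytes, 22 genes for the difference of stage steps and 16 for the macrophage gates. With no filter on low counts these were 206 genes and 5 members, 205 genes and 5 members, 60 genes and 2 members, and 21 genes, and Itgax was at 0.00 in macrophages against monocytes. A minimum of 10 cells changed which libraries entered only between microglial gates, where Fabp5 was at -0.58.

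Leaving out single libraries gave 1876 to 4125 called genes for peak against control, 1721 to 4919 for chronic against control and 429 to 3558 for chronic against peak. At the peak Spp1 ran from -0.41 to 1.99, Igf1 from -1.88 to 0.82 and Cd9 from -0.11 to 0.02, and Itgax between stages from -0.17 to 0.87. Macrophages between stages gave 0 to 155 genes, 0 to 4 members and Lgals3 from -0.52 to 0.40. Monocytes gave 0 to 135 genes, 0 to 2 members, Spp1 from -0.22 to 1.84, Itgax from -0.16 to 1.95 and Lgals3 from -0.15 to 0.31. Macrophages against monocytes gave 897 to 1876 genes and Itgax from -0.15 to 0.18. Macrophages against microglia gave 906 to 2804 genes, 4 to 7 members, Igf1 from -0.39 to 2.71 and Ank from -0.98 to 0.94 at the peak, and 1165 to 2514 genes, 3 to 6 members and Spp1 from -0.41 to 0.78 in chronic EAE. The difference of stage steps gave 0 to 7 genes and Cst7 from -2.53 to 0.29. Macrophage gates gave 0 to 1 genes, Lgals3 from -0.63 to 0.01 and Fabp5 from -0.68 to 0.56. Microglial gates gave Spp1 from -0.21 to 0.44, Gpnmb -0.28 to 0.89, Itgax -0.16 to 0.38, Cst7 -0.37 to 1.17, Fabp5 -0.14 to 0.52, Cd63 -0.15 to 0.29 and Cd9 -0.12 to 0.26. The cause was not tested. Macrophages and monocytes were compared with the library as a block. No paired analysis was possible because, for all comparisons between groups of libraries, the deposited library names carry no replicate numbers.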
